A study of Mus musculus with 8 samples.

Results

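Accessible chromatin at 10 AP-1 and immediate early genes was described in microglia of the mouse hippocampus. The genes were Fos, Fosb, Fosl2, Jun, Junb, Jund, Atf3, Egr1, Ier2 and Nr4a1, chosen by name from 21883 protein-coding genes. For each gene, every ATAC-seq peak within the gene span or 20 kb on either side (its locus) was taken from the 8 deposited peak lists. Peaks of all lists that shared at least 1 bp were merged into regions, which gave 68 regions in these loci out of 52251 in all. ATAC-seq cuts open DNA with a transposase, so that a peak marks a stretch of accessible chromatin. The study asked how growth restriction in the womb bears on microglial chromatin, and compared 4 libraries from FGR mice with 4 from control (Ctrl) mice. The mice of both groups were 3 weeks old and carried 1 copy of a Tmem119-tdTomato reporter (Tmem119-tdTomato+/-), which marks microglia with a red fluorescent protein. The labels give neither sex nor the number of animals behind a library, nor do they say that libraries came from separate animals. P-values therefore measure only the spread between these libraries, which may be technical.

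AP-1 is a dimer of a Jun protein with a Fos, Jun or ATF family protein. It binds a short palindromic DNA element and activates genes after growth factor, cytokine or stress signals. Fos, Jun, Egr1, Ier2 and Nr4a1 belong to the immediate early genes, whose transcription starts within minutes of a stimulus without new protein synthesis. In microglia, AP-1 acts with the myeloid factor PU.1 at enhancers, and immediate early genes are also known to be induced when brain tissue is dissociated into single cells.

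The lists held 27209, 23327, 29501 and 26246 peaks in FGR replicates 1 to 4, and 16111, 10862, 22705 and 24195 in Ctrl replicates 1 to 4. Ctrl 1 and 2 stood apart, with median peak widths of 566 and 522 bp against 353 to 358 bp in FGR and 368 to 386 bp in Ctrl 3 and 4. In the regions called in both, 9.29% of summits were at the very same base in FGR 1 and 3, and 7.80% in FGR 2 and 4, against 1.81% to 2.21% in the other pairs among the FGR libraries and Ctrl 3 and 4. In the loci described here, FGR 1 and 3 had identical summits in 4 of 41 shared regions and FGR 2 and 4 in 1 of 40, against 0 to 2 regions in every other pair of libraries. FGR means are therefore given over n = 2 pairs, replicates 1 with 3 and 2 with 4. Ctrl 1 with 3 and Ctrl 2 with 4 shared 0.00706% and 0.0396% of summits. This cannot tell whether they share material, since Ctrl 1 and 2 shared at most 0.0801% of summits with any FGR library. Ctrl libraries are counted singly, and whether they are independent is not known. Of 9 microglia markers, 8 had a peak at the gene start in at least 5 libraries. Of the 9, 5 had one in all 8 libraries, among them Tmem119, Cx3cr1, Sall1 and Irf8. None of 7 border macrophage and monocyte, 6 neuron, 4 astrocyte and 4 endothelial markers did, and 1 of 4 oligodendrocyte markers did (Cnp). The 6 neuron markers had no start peak in any library. The endothelial marker Flt1 had one in 4 FGR and 1 Ctrl libraries, and the part of endothelial cells in the results was not tested.

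Promoter sequence, 250 bases before to 50 bases after the gene start, was available for 8 of the 10 genes from RefSeq, build GRCm38.p6, whose coordinates are those of mm10. The windows of Fos, Jun and Atf3 are shown because peaks covered all or nearly all of their bases in every library, and that of Nr4a1 because it held the most copies of TGACG. Capitals mark this string, the core part of the cyclic AMP response element (CRE), or its reverse complement, and the strand is that of the gene.
Fos, chr12:85473640-85473939, plus strand: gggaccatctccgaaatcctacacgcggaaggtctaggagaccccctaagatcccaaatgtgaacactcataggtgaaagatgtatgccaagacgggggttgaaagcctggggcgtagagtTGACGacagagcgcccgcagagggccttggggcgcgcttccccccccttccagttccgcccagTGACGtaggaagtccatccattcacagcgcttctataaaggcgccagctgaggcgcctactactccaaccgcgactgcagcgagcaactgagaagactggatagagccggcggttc
Jun, chr4:95052173-95052472, minus strand: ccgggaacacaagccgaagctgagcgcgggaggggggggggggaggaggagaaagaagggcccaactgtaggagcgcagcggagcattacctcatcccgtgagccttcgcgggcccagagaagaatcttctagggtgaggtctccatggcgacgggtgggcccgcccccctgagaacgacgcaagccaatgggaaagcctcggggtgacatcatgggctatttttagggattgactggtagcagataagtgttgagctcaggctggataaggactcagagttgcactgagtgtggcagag
Atf3, chr1:191183284-191183583, minus strand: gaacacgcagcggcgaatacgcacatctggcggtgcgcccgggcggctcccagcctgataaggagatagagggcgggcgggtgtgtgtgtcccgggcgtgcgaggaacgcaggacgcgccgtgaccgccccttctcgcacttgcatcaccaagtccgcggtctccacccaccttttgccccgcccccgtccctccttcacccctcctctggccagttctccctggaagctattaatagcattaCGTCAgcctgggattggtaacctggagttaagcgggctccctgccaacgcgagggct
Nr4a1, chr15:101266596-101266895, plus strand: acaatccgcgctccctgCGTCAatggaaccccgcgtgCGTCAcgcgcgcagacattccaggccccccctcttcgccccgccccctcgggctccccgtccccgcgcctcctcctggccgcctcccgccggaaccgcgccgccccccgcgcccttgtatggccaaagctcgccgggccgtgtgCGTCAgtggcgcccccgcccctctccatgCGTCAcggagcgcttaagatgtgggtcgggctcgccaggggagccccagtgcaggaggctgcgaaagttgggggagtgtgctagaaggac
All 300 bases of the Jun and Atf3 windows lay within a peak in all 8 libraries. The Fos window was covered over 300 bases in 7 libraries and over 253 bases in Ctrl 1. For Nr4a1 the covered length was 300, 200, 277 and 295 bases in FGR 1 to 4, and 300, 147, 290 and 300 bases in Ctrl 1 to 4.

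The strings were searched on both strands with the letters given here, except the CArG box, which is given by name. TGACG was found in the promoters of Fos, Fosb, Junb, Atf3 and Nr4a1, which is 5 of 8, and in 23.6% of 21237 mouse promoters of the same length. Nr4a1 held 4 copies and Fos held 2. The full CRE, TGACGTCA, was in 0 of 8, against 2.24% of all promoters, and the AP-1 element TGANTCA was in 0 of 8, against 6.99%. The element of EGR proteins, GCGNGGGCG, was in 3 of 8 (Fosb, Fosl2 and Nr4a1), against 7.52%. The GC box GGGCGG, which can overlap the EGR element, was in 6 of 8, against 46.2%. The PU.1 string AGGAAG was in 2 of 8 (Fos and Junb), against 34.4%. The NBRE element AAAGGTCA, bound by Nr4a1 protein, was in 0 of 8, against 1.304%, and the CArG box of serum response factor was in 0 of 8, against 1.53%. Base composition differed as well, with a GC content between 46.7% (Jund) and 72.3% (Nr4a1) and a median of 56.3% over all promoters. The windows of Fosl2 and Jund, with 0 of 300 bases in a peak in any library, are counted here although their annotated starts may not be those used in microglia. Sequence outside these windows, and that of Egr1 and Ier2, was not searched. A match is a string of letters, not a bound site.

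The 8 genes with a start in the promoter table had a start-site peak, a peak within 1 kb of the gene start, in all 8 libraries. Egr1 and Ier2 had a peak within 1 kb of either gene end in all 8, and are counted with them. Over all protein-coding genes 33.0% had one in every library. The count was 6 of the 10 when only peaks with a −log10 q of at least 5 were used, against 25.0% of all genes, and 4 of the 10 with lists cut to equal length, against 22.3%. For Egr1 and Ier2 the gene start was not in the promoter table used here, and a peak within 1 kb of either gene end was counted. At Egr1, Ctrl 2 had one at the end of higher coordinate only. None of the 10 differed between the groups in this measure. Among all genes, 1.29% had a start-site peak in at least 3 more FGR than Ctrl libraries and 0.146% the reverse.

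The 3 Fos family genes encode partners that need a Jun protein to bind DNA. The strength of a peak is given as the percentile of its −log10 q within its own list, where 100 is the strongest peak. The q value is the authors', and percentiles of lists of unequal length show no change between libraries. The start-site peak of Fos (chromosome 12, 85473890 to 85477274) stood at percentiles 79.4, 53.2, 68.9 and 67.2 in FGR 1 to 4, and 37.7, 79.0, 66.2 and 73.9 in Ctrl 1 to 4. The groups overlapped, and Ctrl 1 held the lowest value. The start-site peak of Fosb (chromosome 7, 19302696 to 19310118), a close relative of Fos, stood at percentiles 35.8, 60.9, 40.1 and 65.5 in FGR 1 to 4, and 35.3, 64.5, 70.8 and 63.9 in Ctrl 1 to 4. Values were spread widely in both groups. That of Fosl2 (chromosome 5, 32136472 to 32157840), which encodes Fra-2, stood at 75.6, 84.4, 90.0 and 86.3 in FGR 1 to 4, and 48.8, 66.0, 81.3 and 72.0 in Ctrl 1 to 4. The groups overlapped through Ctrl 3. Its summits lay between 553 and 835 bp upstream of the annotated start, and 0 of the 300 promoter bases fell within a peak in any library.

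The Jun family genes encode proteins that form AP-1 with a Fos partner or with each other. The start-site peak of Jun (chromosome 4, 95049036 to 95052222) stood at percentiles 88.7, 83.0, 86.0 and 83.2 in FGR 1 to 4, and 75.5, 77.8, 65.7 and 80.6 in Ctrl 1 to 4. Every FGR value was above every Ctrl value. This was also so for 9.90% of the 8856 regions called in all 8 libraries, and the reverse for 0.632%. The start-site peak of Junb (chromosome 8, 84976909 to 84978748) was weak, at 34.4, 30.0, 56.6 and 30.7 in FGR 1 to 4, and 9.14, 28.4, 32.5 and 42.1 in Ctrl 1 to 4. The region at Jund (chromosome 8, 70697739 to 70700616), a Jun gene known for steady expression, stood at 77.2, 64.7, 86.0 and 63.2 in FGR 1 to 4, and 66.7, 77.2, 73.0 and 86.9 in Ctrl 1 to 4. Its groups overlapped. The Jund region lay inside the gene, with summits 879 to 1246 bp downstream of the annotated start, and 0 of the 300 promoter bases fell within a peak.

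Atf3 (chromosome 1, 191170296 to 191183333) encodes a stress-induced ATF family protein that dimerizes with Jun proteins. Its start-site peak stood at percentiles 75.7, 76.6, 71.5 and 76.2 in FGR 1 to 4, and 58.8, 51.7, 74.0 and 75.6 in Ctrl 1 to 4. The lower values were those of Ctrl 1 and 2. The start-site peak of Nr4a1 (chromosome 15, 101253902 to 101274795), which encodes the orphan nuclear receptor Nur77, stood at 67.1, 47.6, 32.8 and 62.7 in FGR 1 to 4, and 33.6, 44.1, 50.1 and 78.1 in Ctrl 1 to 4. Egr1 (chromosome 18, 34861207 to 34864956) encodes a zinc finger activator of the first response wave. A region over its end of lower coordinate was called in 4 FGR and 3 Ctrl libraries, and a region over the other end in all 8. Ier2 (chromosome 8, 84661331 to 84662852), which encodes a nuclear protein induced by growth factors, had 3 regions within 1 kb of a gene end. Of these, 2 were called in all 8 libraries and the third in 4 FGR and 2 Ctrl libraries.

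The position of the summit set Ctrl 1 and 2 apart at several starts. At Fos the summit lay 15 bp downstream, 10 bp upstream, 36 bp downstream and 24 bp downstream of the start in FGR 1 to 4. It lay 163 and 159 bp upstream in Ctrl 1 and 2, and 15 bp downstream in Ctrl 3 and 4. At Junb it lay 120, 140, 122 and 129 bp upstream in FGR 1 to 4, against 31 and 56 bp downstream in Ctrl 1 and 2 and 113 and 119 bp upstream in Ctrl 3 and 4. At Atf3 it lay 234, 224, 223 and 245 bp upstream in FGR 1 to 4. In Ctrl 1 and 2 it lay 42 and 95 bp upstream, in Ctrl 3 it lay 222 bp upstream, and in Ctrl 4 it lay 38 bp downstream. Ctrl 3 lay with the FGR libraries at all 3 starts, and Ctrl 4 did so at Fos and Junb but not at Atf3. Ctrl 1 and 2 also stood apart at Fosb, Jun and Nr4a1. At Jund the summit of Ctrl 1 lay 1206 bp downstream, within the 1013 to 1222 bp of the FGR libraries. At Fosl2 the summits of Ctrl 1 and 2 lay on opposite sides of those in FGR, 835 and 553 bp upstream against 663 to 689 bp. The cause of these shifts was not tested.

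Of the 68 regions, 23 were called in all 8 libraries, or 33.8%, against 16.9% of all regions. At the starts of these genes, or either end of Egr1 and Ier2, 11 of 13 regions were called in all 8. This was 84.6%, against 46.5% of all regions at a gene start. Away from every gene start it was 9 of 46, or 19.6%, against 6.62% of the regions in protein-coding loci that lie away from gene starts. The other 3 lay at the starts of neighbouring genes, Rnaseh2a and Hook2 beside Junb and Atg101 beside Nr4a1. At the other end, 14 of the 68 were called in a single library, against 23996 of all 52251 regions.

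**Figure D1:**
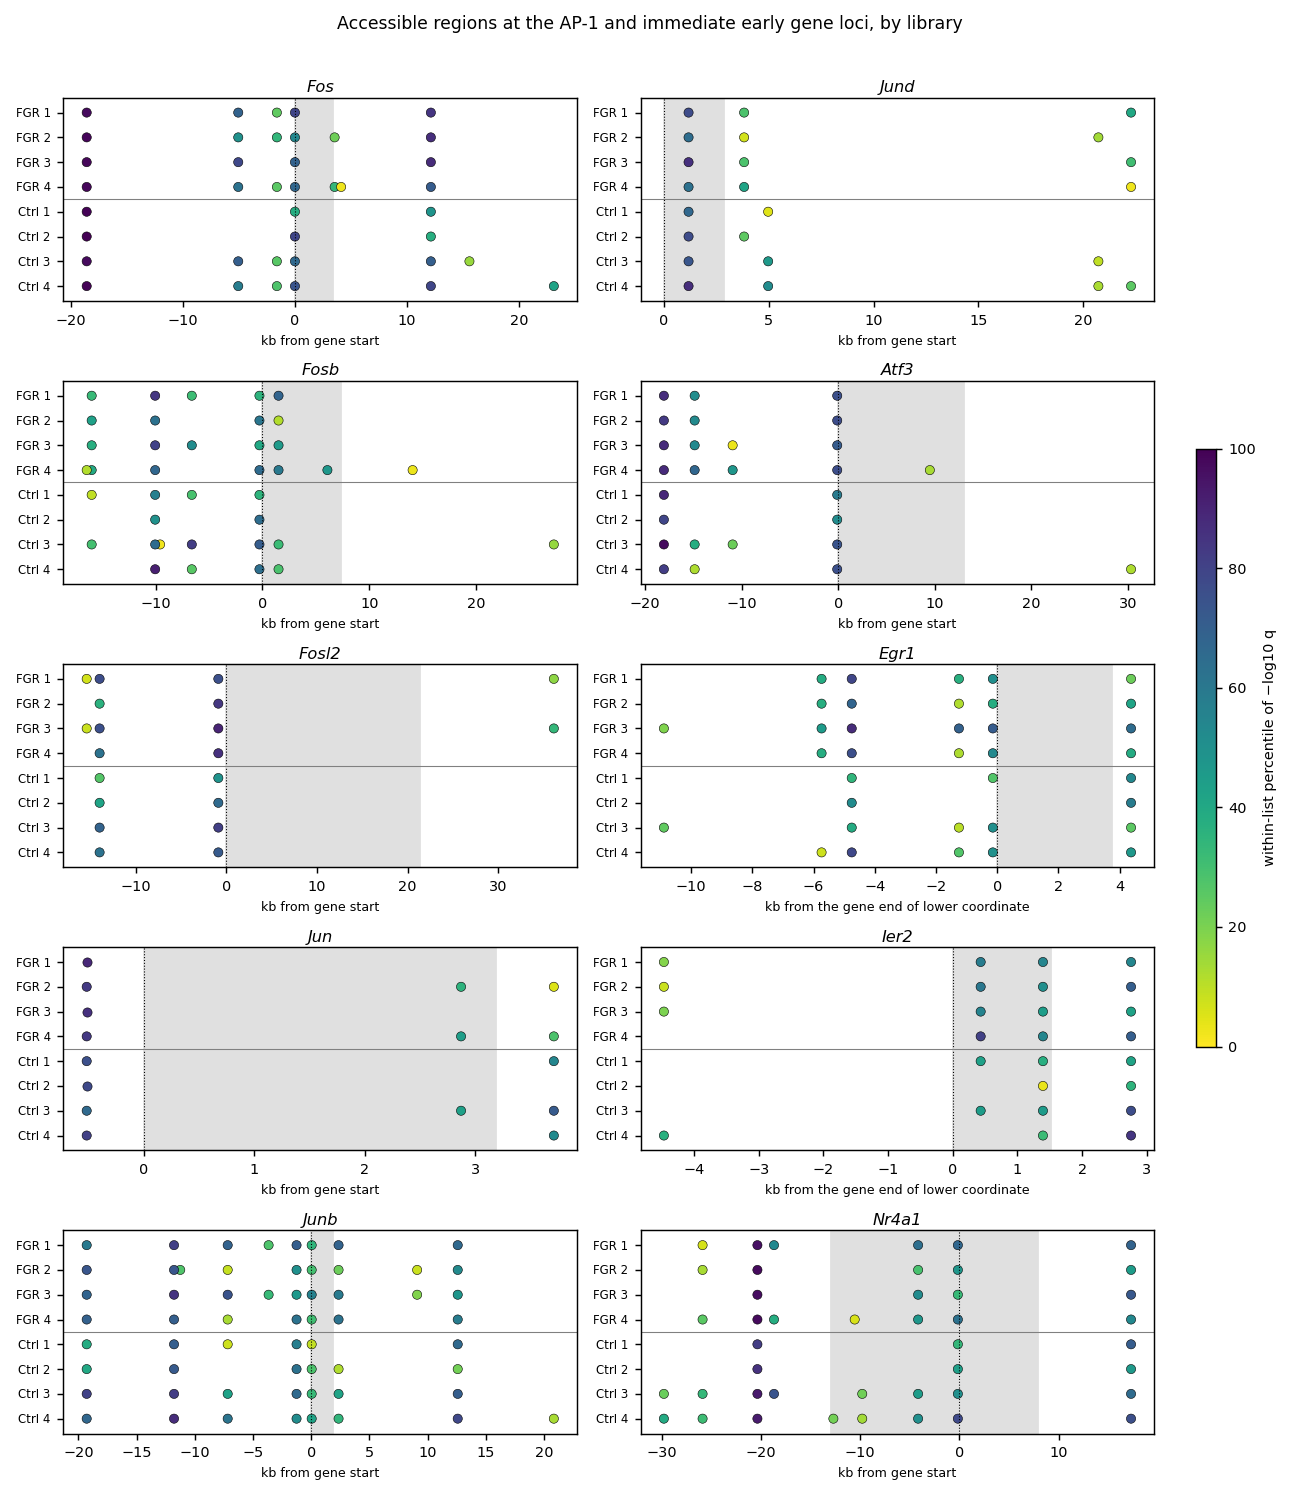
Each panel is 1 locus, with FGR libraries above Ctrl libraries, and each dot is a region called in that library, placed by the distance of the region's centre from the gene start in kb (for Egr1 and Ier2, from the gene end of lower coordinate) and coloured by its within-list percentile of −log10 q. Grey shading marks the gene. Each of the 8 genes with a known start has a dot near 0 in every library, the one of Jund lying 1.18 kb downstream, and a dark dot lies 18.6 kb upstream of Fos in all 8 libraries.

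The strongest accessible region of these loci was not at a gene start. A region 18.6 kb upstream of Fos (chromosome 12, 85454784 to 85455863, outside any protein-coding gene) ranked first among the 68 in each of the 8 libraries. It stood at percentiles 97.5, 98.8, 98.3 and 98.3 in FGR 1 to 4, and 99.4, 99.7, 97.5 and 98.95 in Ctrl 1 to 4. It ranked above the Fos start-site peak in 8 of 8 libraries. A further region 12.1 kb downstream of the Fos start (85485644 to 85486412) stood at 84.6, 86.8, 87.6 and 71.1 in FGR 1 to 4, and 48.4, 37.2, 70.1 and 79.0 in Ctrl 1 to 4. It ranked above the start-site peak in 7 of 8 libraries.

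The same order was seen at Nr4a1 and Atf3. A region 20.3 kb upstream of the Nr4a1 start used here, and 7.405 kb outside the gene span (chromosome 15, 101246117 to 101246877), stood at percentiles 95.9, 97.6, 96.6 and 97.6 in FGR 1 to 4, and 82.4, 85.6, 93.0 and 92.6 in Ctrl 1 to 4. It ranked above the start-site peak in 8 of 8 libraries, and every FGR value was above every Ctrl value. With the Jun start this made 2 of the 23 regions called in all 8 libraries whose groups did not overlap, both with higher percentiles in FGR, near the 9.90% over all such regions. A region 18.05 kb upstream of Atf3 (chromosome 1, 191201028 to 191201735) stood at 86.8, 83.1, 87.8 and 88.1 in FGR 1 to 4, and 88.9, 79.2, 97.2 and 81.8 in Ctrl 1 to 4. It also ranked above the start-site peak in 8 of 8 libraries.

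At Junb, some other regions ranked above the weak start-site peak. Regions called in only 1 or 2 libraries ranked above it in none, and those called in 7 libraries did so in 4 of the 7. A region 19.3 kb upstream, inside Hook2 (chromosome 8, 84997662 to 84998399), stood at percentiles 59.7, 73.4, 68.1 and 69.3 in FGR 1 to 4, and 38.5, 40.1, 80.2 and 67.2 in Ctrl 1 to 4, above the start in 8 of 8 libraries. A region 1.26 kb upstream (84979762 to 84980256) ranked above the start in 7 of 8 libraries. At Fosb, a region 10.04 kb upstream (chromosome 7, 19319763 to 19320407) stood at 84.1, 62.7, 80.3 and 67.1 in FGR 1 to 4, and 57.3, 49.7, 64.9 and 91.1 in Ctrl 1 to 4, above the start in 6 of 8 libraries. At Fosl2, a region 14.0 kb upstream (chromosome 5, 32122192 to 32122795) ranked above the start in only 1 of 8 libraries. At Egr1, a region 4.76 kb beyond the gene end of lower coordinate (chromosome 18, 34856163 to 34856739) stood at 79.0, 67.8, 87.6 and 76.1 in FGR 1 to 4, and 34.7, 52.2, 39.0 and 78.5 in Ctrl 1 to 4. This Egr1 region ranked above every region at a gene end in 5 of 8 libraries. Jun, Jund and Ier2 had no region called in all 8 libraries away from gene starts. A region at the start, or at either end of Egr1 and Ier2, was the strongest of its locus for 3 to 6 of the 10 genes, depending on the library.

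**Figure D2:**
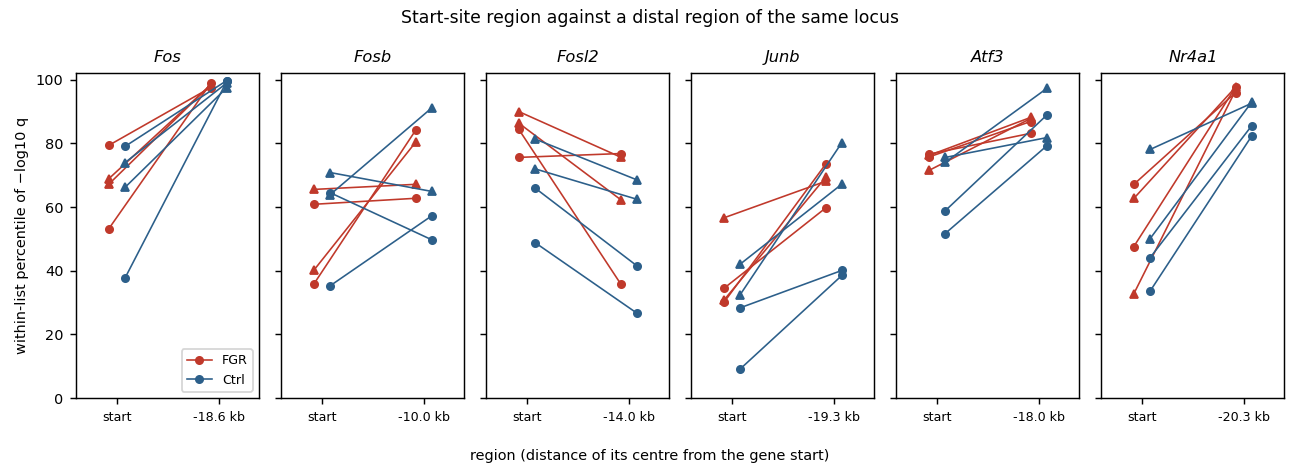
Within-list percentile of −log10 q of the start-site region (left in each panel) and of a region called in all 8 libraries away from gene starts (right, with the distance of its centre from the gene start), for the 6 genes that have both and a known start. Each line is 1 library, red for FGR and blue for Ctrl, with circles for replicates 1 and 2 and triangles for 3 and 4. For genes with several such regions the one farthest upstream is drawn. Lines run upward in all 8 libraries for Fos, Junb, Atf3 and Nr4a1, and downward in 7 of 8 for Fosl2.

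No region of these loci was called in all 4 libraries of one group and none of the other. Over all regions, 0.869% were called in every FGR and no Ctrl library, and 0.0268% in every Ctrl and no FGR library. A difference of at least 3 libraries was seen in 2 regions with more FGR libraries, or 2 of 68 against 4.33% of all regions, and in 1 region with more Ctrl libraries, against 0.216% of all regions. The first lay 5.74 kb beyond the lower end of Egr1 (chromosome 18, 34855215 to 34855716), was called in 4 FGR libraries at percentiles 38.6, 37.4, 45.7 and 37.7, and in Ctrl 4 alone at 7.44. The other 2 lay side by side at the start of Iqcn, a neighbour of Jund. The one at 70701282 to 70701846 was called in 4 FGR libraries at percentiles 28.4, 6.99, 28.5 and 41.5, and in Ctrl 2 alone at 24.9. The one at 70702351 to 70703072 was called in no FGR library, and in Ctrl 1, 3 and 4 at 5.07, 46.3 and 51.7. Each of the 3 had a Fisher's exact p of 0.143, with a Benjamini-Hochberg adjusted p of 0.837 over 16043 regions. None of the 16043 passed, 468 had an unadjusted p under 0.05, and the smallest p that 4 against 4 libraries allow is 0.0286. Only regions called in every library of one group and none of the other reach it. With so few of them none could pass the adjustment, so the absence of calls is not evidence of no difference. The test per gene start had the same limit and called 0 of 2989, with 46 at an unadjusted p under 0.05. Both tests counted the FGR libraries singly, not as pairs.

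Calls were fewest in Ctrl 1 and 2. Of the 68 regions, 44, 44, 44 and 49 were called in FGR 1 to 4, and 30, 25, 48 and 46 in Ctrl 1 to 4. There were 5 regions called in every library but Ctrl 1 and 2, or 7.35%, against 1.53% of all regions. Named after their values were seen, they lay 5.05 kb upstream of Fos, inside Fosb, 14.9 kb upstream of Atf3, 1.25 kb beyond the lower end of Egr1 and inside Nr4a1. Ctrl 1 and 2 have the shortest lists, and the part of list length in these calls was not tested.

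Peaks per locus did not differ between FGR and Ctrl at any of the 10 genes by limma. The Fos locus held 5, 6, 4 and 7 peaks in FGR 1 to 4, and 4, 3, 6 and 6 in Ctrl 1 to 4. The Fosb locus held 5, 4, 5 and 8 peaks in FGR, and 4, 2, 7 and 4 in Ctrl. The Fosl2 locus held 5, 2, 4 and 2 peaks in FGR, and 2, 2, 2 and 3 in Ctrl. In all 3 the counts overlapped, and Ctrl 2 had the lowest or a joint lowest count. The Jun locus held 2, 4, 2 and 3 peaks in FGR, and 3, 1, 4 and 2 in Ctrl. Junb had the highest mean in either group, with 8, 9, 9 and 7 peaks in FGR, and 6, 6, 7 and 8 in Ctrl. The Jund locus held 3 peaks in each FGR library, and 2, 2, 3 and 4 in Ctrl. The Jun family loci also overlapped between the groups. The Atf3 locus held 3, 3, 4 and 5 peaks in FGR, and 2, 2, 4 and 4 in Ctrl. The Egr1 locus held 6, 5, 7 and 5 peaks in FGR, and 3, 2, 5 and 5 in Ctrl. The Ier2 locus held 4, 4, 4 and 3 peaks in FGR, and 3, 2, 3 and 3 in Ctrl. For Egr1 and Ier2 no Ctrl count was above the lowest FGR count. The Nr4a1 locus held 6, 5, 4 and 7 peaks in FGR, and 3, 3, 8 and 8 in Ctrl, so that its Ctrl libraries lay on both sides of the FGR range.

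**Figure D3:**
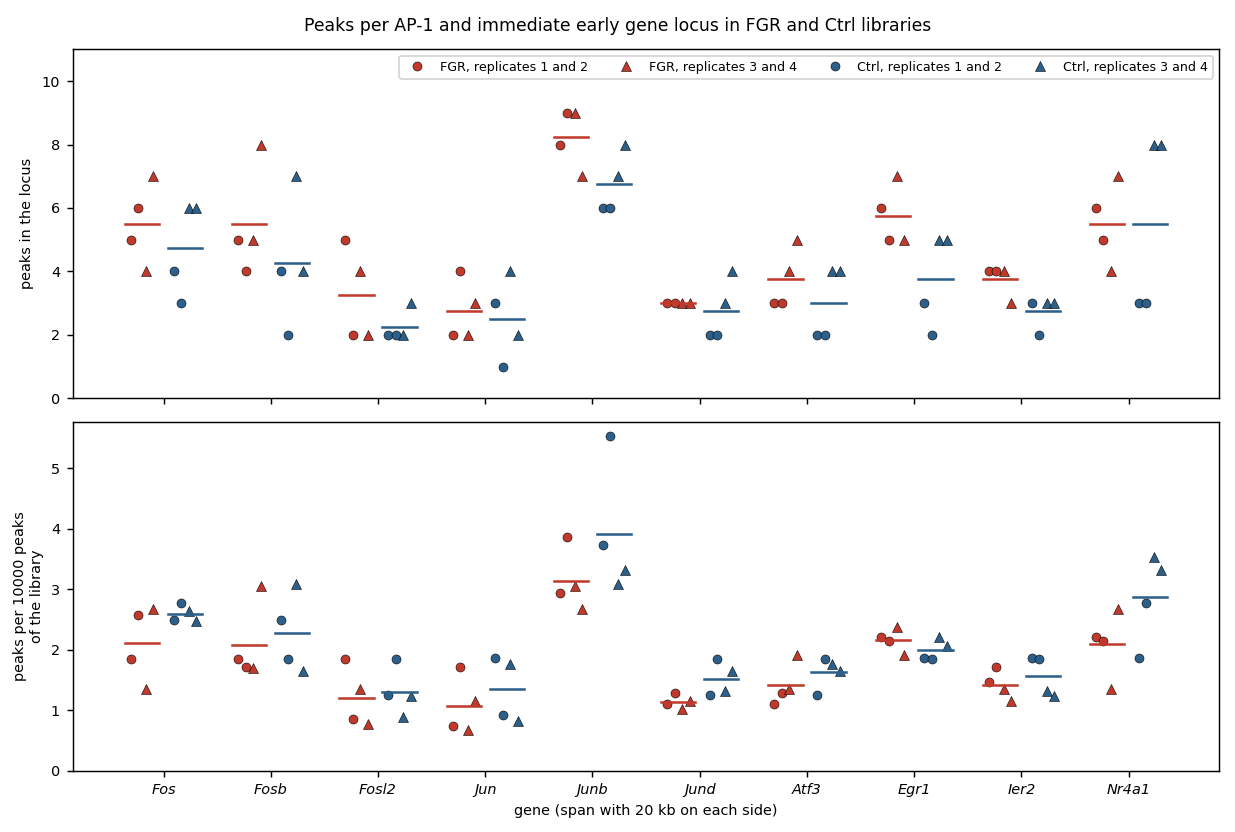
Peaks in each locus (upper panel) and the same per 10000 peaks of the library (lower panel), in FGR (red, left) and Ctrl (blue, right) libraries. Circles are replicates 1 and 2, triangles replicates 3 and 4, and lines are means of 4 libraries. Counts of Ctrl 1 and 2 lie low in the upper panel for most genes, and in the lower panel the groups overlap for all 10.

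Divided by list length, the loci together held 17.3, 19.3, 15.6 and 19.1 per 10000 peaks in FGR 1 to 4, and 19.9, 23.0, 21.6 and 19.4 in Ctrl 1 to 4. Every FGR library lay below every Ctrl library, with means of 17.8 ± 1.94 in FGR (SD, n = 2 pairs) and 21.0 ± 1.65 in Ctrl (SD, n = 4 libraries). The nearest were FGR 2 at 19.29 and Ctrl 4 at 19.43. The share was also lower in FGR over all loci tested, with a median log2 difference of -0.28. No background was computed for sums of 10 loci. Without division the loci held 47, 45, 46 and 50 peaks in FGR, and 32, 25, 49 and 47 in Ctrl, with means of 47 and 38.25, so that the direction depends on the scaling. For single loci, the share of peaks was lower in every FGR than in every Ctrl library at 5.80% of the 8034 loci tested and higher at 1.46%, and at none of the 10.

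The test was made on log2 of peaks plus 0.5 per 10000 peaks, for the 8034 loci that averaged 2 peaks or more per library, all 10 genes among them. The log2 difference of FGR over Ctrl had a median of -0.29 over the 10 loci, against -0.28 over all loci. Without division by list length the medians were 0.29 and 0.31, so the 10 loci moved with the median of all loci under either scaling. Of the 10 genes, Egr1 alone differed from the median of all loci by more than its SE. Nr4a1 had a difference of -0.48 ± 0.23 (SE, limma adjusted p = 0.263). It was the only one of the 10 with an unadjusted p under 0.05. With replicates 1 and 3, and 2 and 4, averaged within each group, 0 of the 10 were under that level. In the main fit, which took the 8 libraries singly, 15.6% of all loci were lower in FGR at that level and 2.60% higher. The differences of the other genes were -0.37 for Fos, -0.19 for Fosb, -0.21 for Fosl2, -0.40 for Jun, -0.31 for Junb, -0.44 for Jund, -0.27 for Atf3, 0.03 for Egr1 and -0.20 for Ier2, with limma adjusted p from 0.296 to 0.938. After adjustment limma called 0.0124% of all loci higher in FGR, which is 1 locus, and 0% lower. Counts this small may show only large differences. In simulated FGR and Ctrl counts over 8034 loci, 36% of loci changed by a fold of 4 were recovered and 0.5% of those changed by a fold of 2. The simulated counts were drawn independently for each library from a Poisson distribution. Real libraries may vary otherwise, so these rates hold for the simulation only.

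**Figure D4:**
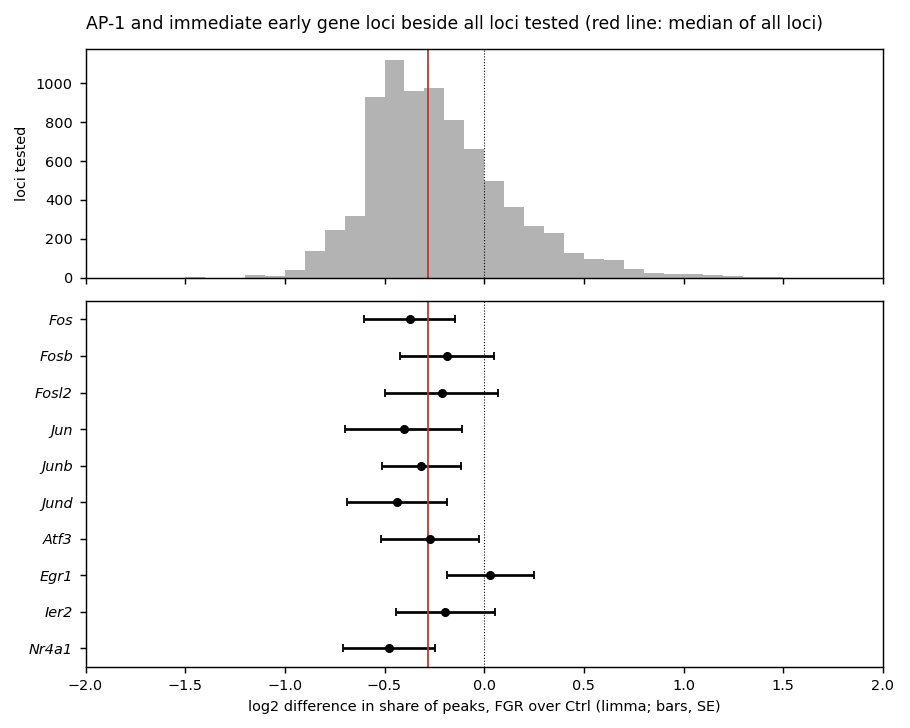
The upper panel is a histogram of the log2 difference in share of peaks, FGR over Ctrl, over the loci tested, and the lower panel gives the 10 genes with their SE from limma. The red line is the median of all loci, -0.28, and the SE bars of 9 genes cross it, while Egr1 lies above it.

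A wider list of 47 other AP-1, mitogen-activated kinase and immediate early genes was set beside them. Of these, 31 had a start-site peak in all 8 libraries, or 66.0%, against 33.0% of all genes. Another 4 had none in any library, against 9072 of all 21883 genes. They were Fosl1, Batf2, Egr3 and Npas4, named after their values were seen. Fosl1 encodes the Fos family protein Fra-1 and Npas4 an activity-induced factor of neurons. None differed by 3 or more libraries between the groups. Of the 31 loci tested by limma none passed in either direction. At an unadjusted p under 0.05 there was 1 of the 31 higher in FGR, against 2.60% of all loci tested. There were 6 lower, against 15.6% of all loci tested. The median log2 difference was -0.29, as over the 10 genes.

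Outside the list, the loci whose log2 share of peaks over the 8 libraries was most like the summed share of the 10 genes were those of Cfap70 (Pearson r = 0.979) and of Cds2 and Trex1 (both r = 0.958). The points share list length and the displaced libraries Ctrl 1 and 2. Cfap70 held 3, 3, 2 and 3 peaks in FGR 1 to 4, and 2, 2, 4 and 3 in Ctrl 1 to 4.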

How the data were processed

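ATAC-seq peak lists of 8 libraries, 4 FGR and 4 Ctrl, were used as the authors deposited them, 1 list per library. Per the submitters' processing notes, the tools included MACS2 2.2.7.1, DiffBind 3.12.0, Bowtie2 2.4.5, Trim Galore 0.6.5 and SAMtools 1.3.1, and the build was mm10. Not given in the sources used here are the settings of each, and whether reads were shifted or duplicates and blacklisted regions removed. Read depth is unknown. The deposited fold ratio compares the summit with local background, the deposited −log10 p and q values rank peaks, and the deposited score is for display. Only −log10 q was used, within each list. The lowest −log10 q in a list was 1.31 and the shortest peak 200 bp.

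Genes came from RefSeq GRCm38.p6. Gene starts were in the promoter table for 17491 genes (79.9%), and either gene end was used for the rest. Peaks per locus were tested with limma 3.58.1 (R 4.3.3, trend, Benjamini-Hochberg, threshold 0.05), and presence per region or gene start with two-sided Fisher's exact tests. Counting and plotting were done in Python 3.11.15 with pandas 2.3.3, numpy 2.4.6, matplotlib 3.10.9 and scipy 1.17.1. The test was checked on simulated counts. The genes and lists were chosen with earlier results of these data known. All 10 genes were named. Some marker and wider-list genes are not reported here. Regions were named if they lay at a start, were called in all 8 libraries or differed by 3 or 4 libraries. Exceptions are the regions said in the text to be named after their values were seen. Wider-list genes were named if limma called them or presence differed by 3 or 4 libraries, with exceptions said in the text to be named after their values were seen, and likeness took the 3 loci of highest Pearson r. Alternatives were other flanks, windows, thresholds, pseudocounts and scalings, and leaving out libraries.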

Additional observations from a re-analysis of the deposited data

Results flagged for a closer look

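In 42 groups of 4 libraries examined, 2 held a library far from the other 3 by Dixon's test, where chance flags about 1 in 20 groups. The Fosb locus held 3.05 per 10000 peaks in FGR 4, against 1.69 to 1.84 in FGR 1 to 3, and 1.65 to 3.08 in the Ctrl libraries. The start-site peak of Junb stood at percentile 56.6 in FGR 3, against 30.0 to 34.4 in the other FGR libraries, and 9.14 to 42.1 in the Ctrl libraries.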

How the results depend on the processing

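None of the 10 loci was called by limma in any of 19 alternatives, where the smallest adjusted p of any of them was 0.158 (pseudocount of 1). Peaks with −log10 q of at least 5, or a flank of 10 kb, left 8 of the loci to test, and lists of equal length left 5. Of 181 single-locus values, 165 kept their sign. Without division by list length the log2 differences were 0.21 (Fos), 0.40 (Fosb), 0.38 (Fosl2), 0.18 (Jun), 0.27 (Junb), 0.15 (Jund), 0.32 (Atf3), 0.39 (Ier2) and 0.11 (Nr4a1), with all loci shifted as well. With Ctrl 1 and 2 left out together they were 0.078 (Fosl2), 0.10 (Ier2) and -0.0038 (Egr1). With lists of equal length Atf3 had 0.12. Egr1 had -0.024 in replicates 3 and 4 alone, -0.033 with a pseudocount of 1, and -0.0087 to 0.084 when 1 library was left out. The cause was not tested.

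Regions called in every FGR and no Ctrl library numbered 1 with −log10 q of at least 5 (beside Egr1, against 344 of all regions), 1 with Ctrl 1 and 2 left out and 1 in replicates 3 and 4 alone (beside Jund, against 531 and 1601), 1 where a peak had to cover 50% of the region (Ier2, against 455), and 0 to 1 when 1 library was left out (against 461 to 884). Without Ctrl 2 it was the Jund region and without Ctrl 4 the Egr1 region. Regions called in every Ctrl and no FGR library numbered 3 with Ctrl 1 and 2 left out and 4 in replicates 3 and 4 alone (against 385 and 635 of all regions), and 0 to 1 when 1 library was left out (beside Jund, without Ctrl 2, against 15 to 79). Fewer libraries loosen both requirements. Genes with a start-site peak in all 8 libraries numbered 6 with −log10 q of at least 5, 4 with lists of equal length and 8 with a 250 bp window, against 25.0%, 22.3% and 30.7% of all genes. The difference in summed peaks per 10000 was -4.91 with a flank of 50 kb, and 8.75 peaks without division. Over all loci, limma called 7 higher and 50 lower with a pseudocount of 1, 13 and 7 with lists of equal length, 10 and 1 without division, 8 and 7 without Ctrl 3, and 0 and 0 with the pairs averaged.

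With the replicate block, limma called 0 of the 10 loci, with a smallest adjusted p of 0.18, and 54 higher and 87 lower of all loci. Correlations of deviations between same-numbered libraries were -0.018, 0.098, 0.067 and 0.029. Replicates 1 and 2 of both groups are in deposit set 1, and replicates 3 and 4 in deposit set 2. FGR 2 had 0.054 and 0.098 with Ctrl 1 and 2, and -0.072 and -0.12 with Ctrl 3 and 4. FGR 3 had -0.035 and -0.099 with Ctrl 1 and 2, and 0.067 and 0.108 with Ctrl 3 and 4. Those of FGR 1 and 4 lay between -0.018 and 0.029. The part of the deposit set was not tested.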
